A study of Mus musculus with 24 samples.

Results

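The Hox genes are the homeobox transcription factor genes of the *Hoxa*, *Hoxb*, *Hoxc* and *Hoxd* clusters. They were taken as every row of the expression table whose symbol is a cluster letter followed by a paralogue number, which gave 39 of 49452 genes. These were 11 *Hoxa*, 10 *Hoxb*, 9 *Hoxc* and 9 *Hoxd* genes. This rule used names and no measured value, but it was set with earlier results of these data known.

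In vertebrates, the order of Hox genes along a cluster parallels where along the head-to-tail axis they act. Genes with low paralogue numbers act in the hindbrain, neck and upper trunk, and genes with high numbers act in the lower trunk, limbs and urogenital region. Mesenchymal cells, fat cell precursors among them, keep much of the Hox pattern of the place they came from, in part through Polycomb and trithorax chromatin complexes. Hox proteins bind DNA together with cofactors of the Pbx and Meis families, and retinoic acid is a classical inducer of the low-numbered genes.

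RNA was sequenced from primary cells of the stromal vascular fraction (SVF), the precursor-rich cell mix left when mature fat cells are removed, of male C57BL/6 mice that were 6 to 8 weeks old. Brown cells (1° BAT) came from the interscapular depot between the shoulders and visceral white cells (1° vWAT) from the epididymal, perigonadal depot. All cells were nucleofected with siRNA at 100 nmol/l and were used 48 to 72 h later. The siRNA was a non-targeting control (siCtrl, written siKO in the library titles) or one against *H19* (siH19, written siH19_3). *H19* is a maternally expressed long non-coding RNA. Libraries were made before differentiation (d0) or at day 3 (d3), which gave 8 groups of 3 libraries. Induction lasted 48 h with insulin, dexamethasone, rosiglitazone and isobutylmethylxanthine, to which indomethacin and triiodothyronine were added for brown cells. The medium that followed held triiodothyronine for brown and rosiglitazone for white cells. BAT tissue could be pooled across mice to reach enough cells, and no label ties a library to an animal, so p-values here measure the spread between these libraries.

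Depot moved together with other things in these libraries. The brown libraries carry the label series MB-3 and the white ones MB-4, the d3 media differed, and relative depth, read from the step size of low values, was 0.826 to 0.983 in BAT and 1.017 to 1.167 in vWAT. The study's methods also add the enzyme Dispase I to the digestion of BAT alone. Depot and these factors cannot be told apart. Values are FPKM, fragments scaled to transcript length and library size, which sum to 710794 to 841456 per library, with 12311 to 13125 genes at 1 FPKM or more. *H19* checked the siRNA labels. Its mean fell from 130 to 4.36 FPKM in 1° BAT and from 11.7 to 1.21 FPKM in 1° vWAT at d0, and from 89.8 to 13.7 and 8.59 to 0.528 FPKM at d3. Of the markers of brown origin, 3 of 4 tested were lower in vWAT at d0, and of those of epididymal origin, 4 of 5 were higher. At d0 in siCtrl cells the brown-lineage gene *Lhx8* averaged 11.5 FPKM in BAT and 0.0316 in vWAT, *Zic1* 4.25 and 0.0756, and the visceral gene *Wt1* 0.149 and 34.1. *Ucp1*, the thermogenic uncoupling protein, was near 0 at d0 in BAT (0.0204) and reached 12.1 FPKM at d3.

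Other cell types were also present to different degrees. The summed level of the 6 mesothelial markers was 195 to 224 FPKM in vWAT siCtrl d0 libraries and 5.14 to 5.92 in BAT, where *Upk1b* and *Upk3b* were listed at 0. At d3 it was 53.8 to 62.4 against 1.36 to 3.50. The 4 macrophage markers summed to 51.9 to 58.1 against 22.8 to 25.7 at d0 and 37.0 to 37.4 against 9.28 to 9.48 at d3. Of the 5 skeletal muscle markers, 3 were tested at d0 in siCtrl cells. *Myog*, a muscle regulator, averaged 14.3 FPKM in BAT and was listed at 0 in vWAT, *Myod1* averaged 3.47 and 0.0167, and the filament gene *Des*, higher in vWAT, 22.0 and 33.8. The list summed to 31.6 to 52.2 FPKM in BAT and 30.1 to 39.0 in vWAT. Of the precursor markers 2 were higher and 2 lower of 5 in vWAT at d0, of the adipocyte markers 1 was higher of 5, of the endothelial markers 1 was higher of 4, and the 1 Schwann cell marker tested was lower. Of the 8 markers of epididymal epithelium, none passed the filter between depots in siCtrl cells. *Crisp1* passed it with siH19 at d3, where it was at 2.41, 7.25 and 13.8 FPKM in vWAT and listed at 0 in BAT. The part of these cells in the Hox values was not tested. In bulk RNA, fewer cells of a type and less RNA per cell cannot be told apart.

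All 4 clusters were expressed, but along different stretches (coordinates on GRCm38.p5). *Hoxa* spans chr6:52155590-52260880, *Hoxb* chr11:96194316-96368256, *Hoxc* chr15:102921103-103036852 and *Hoxd* chr2:74668310-74765142. In all 24 libraries, 16 Hox genes were at 1 FPKM or more and 12 were below it, with 11 in between. The 16 were *Hoxa2* to *Hoxa5*, *Hoxa7*, *Hoxb2* to *Hoxb7*, *Hoxc4*, *Hoxc5*, *Hoxc6*, *Hoxc8* and *Hoxd8*. The 12 low genes were *Hoxa11*, *Hoxa13*, *Hoxb1*, *Hoxb13*, *Hoxc11*, *Hoxc12*, *Hoxd1*, *Hoxd3* and *Hoxd10* to *Hoxd13*, and the highest value among them was 0.926 FPKM, for *Hoxd3*. *Hoxd12* was listed at 0 in all 24 libraries.

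**Figure D1:**
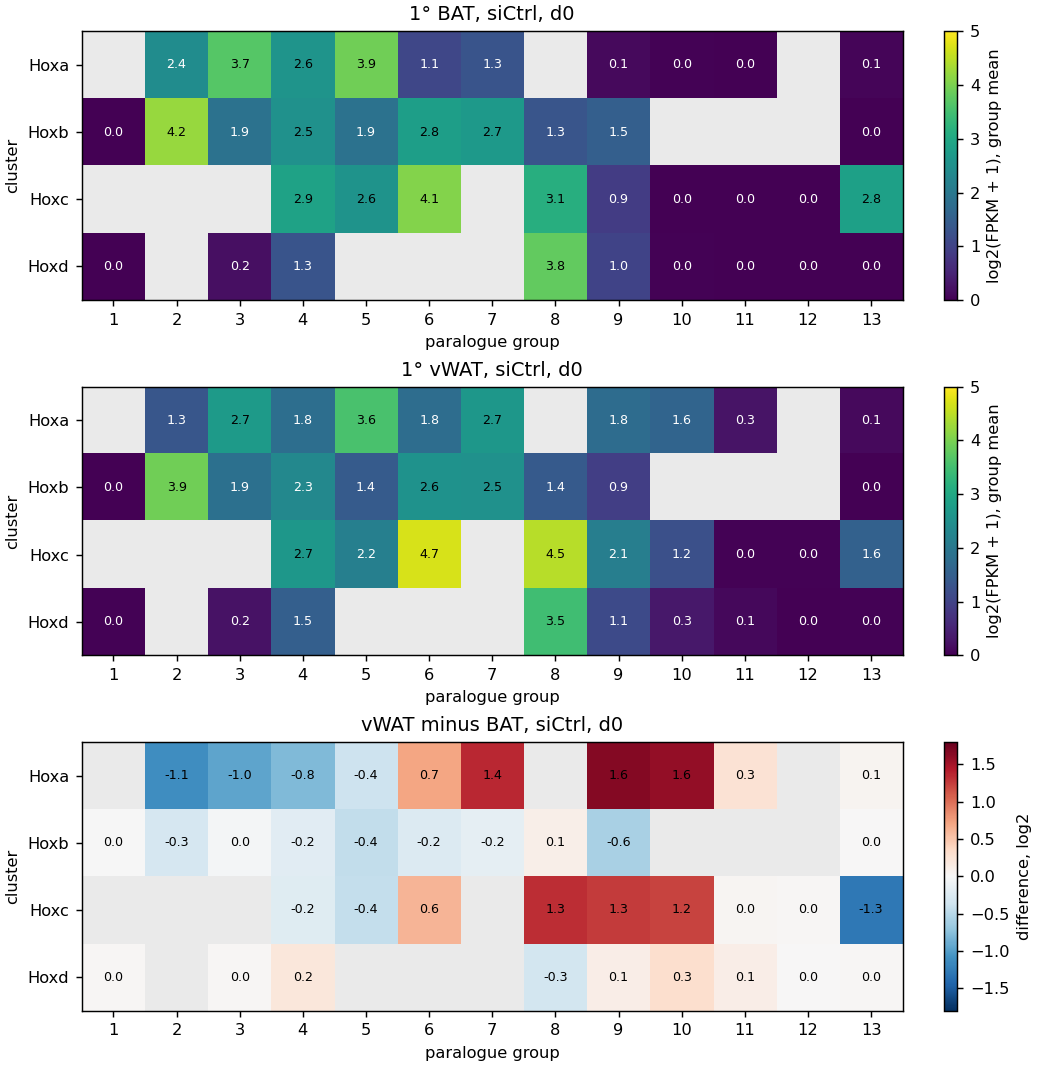
Mean log2(FPKM + 1) of Hox genes by cluster (rows) and paralogue group (columns) in siCtrl cells at d0, in 1° BAT (top), 1° vWAT (middle) and as vWAT minus BAT (bottom), 3 libraries per group, with grey where a cluster has no gene or none is shown. *Hoxa2* to *Hoxa4* and *Hoxc13* lie on the BAT side of the difference, and *Hoxa6* to *Hoxa10* and *Hoxc6* to *Hoxc10* on the vWAT side.

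The level order differed by depot. In BAT siCtrl cells at d0, *Hoxb2*, a hindbrain patterning gene, was highest at 17.7 ± 0.388 FPKM (SD, n = 3), followed by *Hoxc6* (15.9 ± 0.196), *Hoxa5* (14.2 ± 0.727), *Hoxd8* (12.9 ± 1.25) and *Hoxa3* (11.8 ± 1.36). *Hoxb2* and *Hoxc6* did not overlap, whereas *Hoxd8* overlapped with both *Hoxa5* above it and *Hoxa3* below it. In vWAT siCtrl cells at d0 the order began with *Hoxc6* (24.9 ± 0.368), *Hoxc8* (21.1 ± 0.810) and *Hoxb2* (14.2 ± 0.364), which did not overlap. At d3 it began with *Hoxc6* (13.9 ± 1.49), *Hoxa5* (12.7 ± 0.677) and *Hoxb8* (10.4 ± 0.311) in BAT, and with *Hoxc8* (35.5 ± 1.43), *Hoxc6* (29.1 ± 1.13) and *Hoxa7* (12.2 ± 0.491) in vWAT. In BAT, *Hoxc6* and *Hoxa5* overlapped at d3, while the leading 3 genes of vWAT did not.

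The first question was how the 2 depots differ. Differences are vWAT minus BAT on the log2(FPKM + 1) scale, ± their SE, from limma. A gene was called at an adjusted p under 0.05 with at least 1.3-fold on that scale. Fold differences and rises stated for single genes are ratios of mean FPKM. Of the 39 genes, 27 passed the filter (1 FPKM in 3 libraries) in siCtrl cells at d0, and 8 were higher and 8 lower in vWAT. Over all 13139 genes tested, 31.2% were called, 21% higher and 10.2% lower. Among the 27, 7 passed through 1 depot alone, which favoured a difference, so the share of Hox genes called is no sign of a particular difference. Without any 1 of the 3 vWAT libraries and with the filter redone, 4 Hox genes were higher instead of 8. Genes under 1 FPKM in all BAT libraries fail that filter by rule, whatever their vWAT values. The median difference of the 27 was -0.20, against 0.13 for all genes tested. At d3 in siCtrl cells, 11 of 25 genes tested were higher and 5 lower, with 48.6% of all genes called, 32.1% higher and 16.5% lower.

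The siH19 groups gave the same contrast in other libraries. There, 9 of 27 genes were higher and 7 lower at d0, and 9 of 26 were higher and 8 lower at d3, where 30.4% (20.6% higher, 9.82% lower) and 41.2% (25.2% higher, 15.9% lower) of all genes were called. These counts included 9 and 6 genes that passed the filter in 1 depot alone. Trimmed-mean (TMM) scaling moved the median of all genes from 0.13, 0.12, 0.16 and 0.09 to within 0.01 of 0 in the siCtrl d0, siH19 d0, siCtrl d3 and siH19 d3 comparisons. It also moved the split of all genes called from 2753 higher and 1343 lower to 1917 and 1868 in siCtrl cells at d0, and from 4216 and 2162 to 3170 and 3037 at d3. In siH19 cells it moved from 2690 and 1282 to 1979 and 1766 at d0, and from 3311 and 2090 to 2758 and 2652 at d3. Of the Hox genes in siCtrl cells at d0, 8 were higher and 11 lower after that scaling, and no called Hox gene changed direction.

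In all 4 depot comparisons, which share no libraries, 10 of the 24 Hox genes tested each time were called in the same direction. *Hoxa6*, *Hoxa7*, *Hoxa9*, *Hoxc6*, *Hoxc8*, *Hoxc9* and *Hoxc10* were higher in vWAT, and *Hoxa2*, *Hoxa4* and *Hoxb5* were lower. Of 12102 genes tested in all 4, 8.02% were higher and 2% lower each time. Of the 7 higher genes, *Hoxa6*, *Hoxa9*, *Hoxc9* and *Hoxc10* passed the filter through vWAT alone in at least 1 comparison. *Hoxa9*, *Hoxc9* and *Hoxc10* had to differ there to be tested. For *Hoxa6*, with some BAT libraries at 1 FPKM or more, the filter favoured a difference. With the filter redone without vWAT siCtrl d0 replicate 1, 2 or 3, or vWAT siH19 d3 replicate 2 or 3, 4 of the 7 were called each time. In such fits a gene under 1 FPKM in all BAT libraries compared fails the filter by rule. *Hoxa10* was higher in each of the 3 comparisons in which it passed the filter, each time through vWAT alone.

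**Figure D2:**
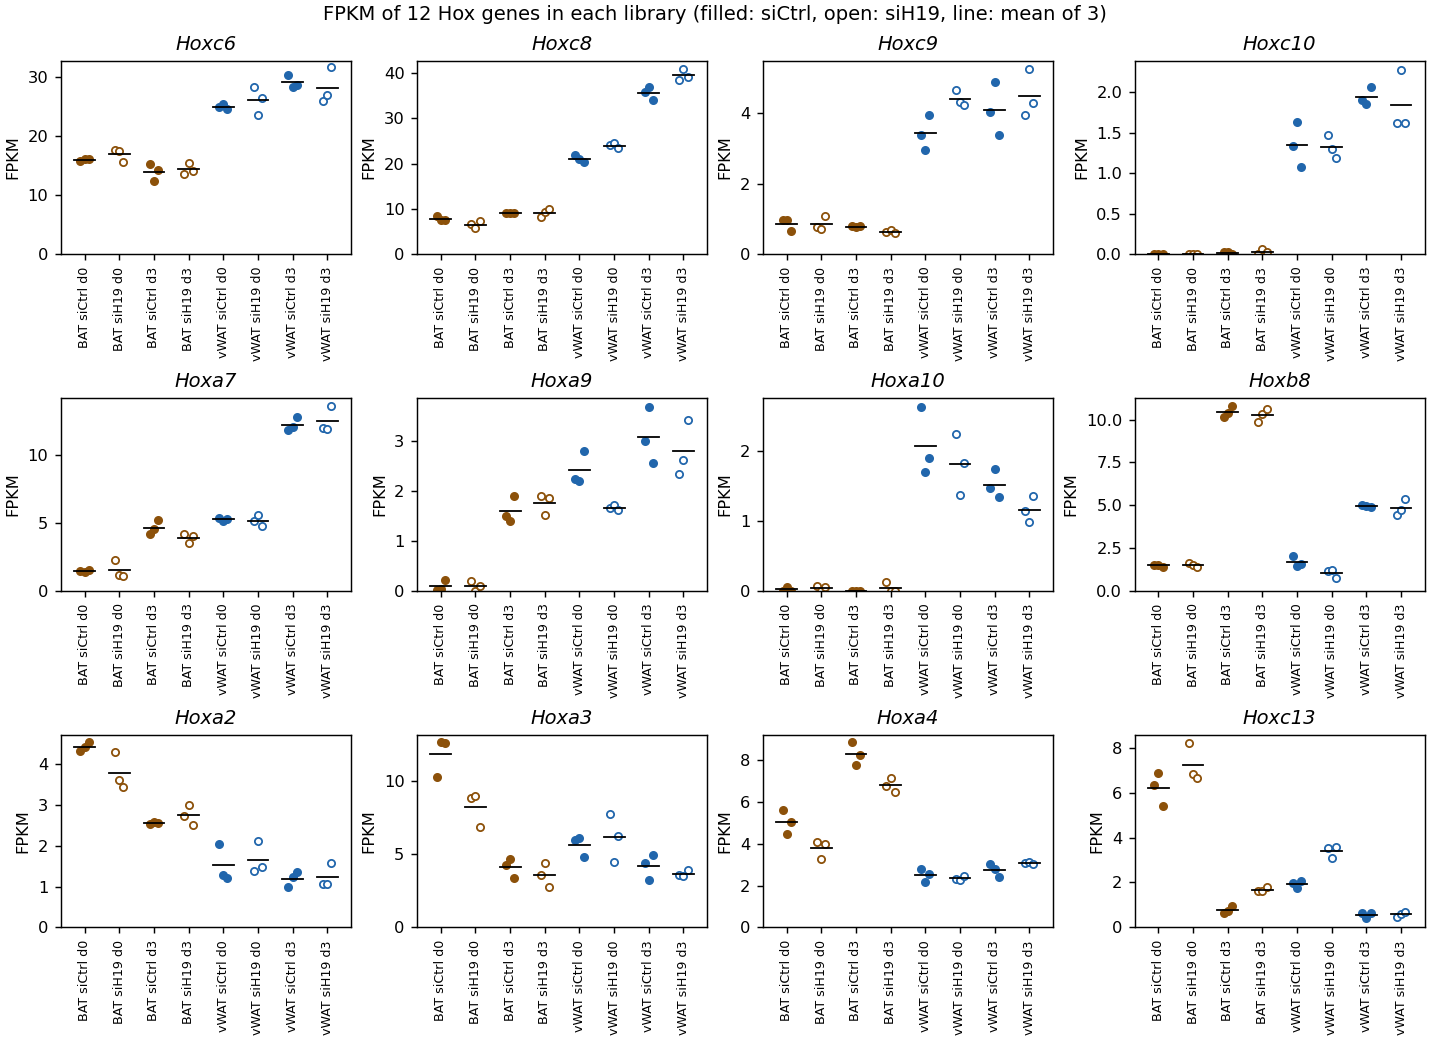
FPKM of 12 Hox genes in each of the 24 libraries, by group on the horizontal axis, with siCtrl filled, siH19 open, BAT brown, vWAT blue and a line at the mean of 3 libraries. *Hoxc10* and *Hoxa10* stay near 0 in BAT, and *Hoxb8* reaches its highest values in BAT at d3 (10.2 to 10.8 FPKM in siCtrl).

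The trunk genes of the *Hoxc* cluster were higher in vWAT. *Hoxc8*, at chr15:102990607-102994111, patterns the thoracic skeleton and is known as a repressor of brown fat formation in white fat progenitors. In siCtrl cells at d0 it measured 8.44, 7.46 and 7.57 FPKM in the BAT libraries and 21.9, 21.0 and 20.3 in the vWAT libraries. The 2 depots did not overlap, and the means differed 2.70-fold (log2 difference 1.32 ± 0.07, adjusted p = 1.72e-05). At d3 the siCtrl values were 9.09, 9.17 and 9.16 FPKM in BAT and 35.8, 36.9 and 34.0 in vWAT, a 3.89-fold difference (1.85 ± 0.05, adjusted p = 9.18e-07). In siH19 cells they were 6.59, 5.66 and 7.32 against 24.1, 24.5 and 23.4 FPKM at d0 and 8.09, 9.31 and 10.02 against 38.5, 40.9 and 39.1 at d3. All 12 vWAT libraries were above all 12 BAT libraries for this gene, and its d3 difference in siH19 cells was the largest called among the Hox genes in that comparison (2.00 ± 0.08, adjusted p = 4.98e-06).

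*Hoxc6*, its neighbour toward the head end and the most abundant Hox transcript of vWAT at d0, differed less. It measured 15.7, 16.0 and 16.0 FPKM in BAT and 24.9, 25.3 and 24.6 in vWAT at d0 (0.62 ± 0.05, adjusted p = 8.12e-05), and 15.2, 12.3 and 14.2 against 30.3, 28.2 and 28.7 at d3 (1.02 ± 0.08, adjusted p = 6.09e-05). Values in siH19 cells were 17.7, 17.4 and 15.6 against 28.3, 23.6 and 26.4 at d0 and 13.6, 15.3 and 14.1 against 25.9, 26.9 and 31.7 at d3. The depots were again fully separate, although BAT never fell below 12.3 FPKM.

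Toward the tail end the BAT level approached 0. *Hoxc9*, which acts in the thoracic and upper lumbar trunk, measured 0.963, 0.954 and 0.658 FPKM in BAT and 3.40, 2.96 and 3.94 in vWAT in siCtrl cells at d0 (1.25 ± 0.12, adjusted p = 0.00027). At d3 it measured 0.792, 0.756 and 0.798 against 4.04, 4.89 and 3.38 (1.51 ± 0.12, adjusted p = 5.35e-05). In siH19 cells the values were 0.779, 0.715 and 1.09 against 4.66, 4.31 and 4.24 at d0 and 0.615, 0.693 and 0.599 against 3.95, 5.25 and 4.28 at d3. *Hoxc9* reached 1 FPKM in 1 of 12 BAT libraries and in all 12 of vWAT.

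*Hoxc10*, a lumbar gene studied as a suppressor of browning in white fat, was listed at 0 in all 6 BAT libraries at d0. At d3 the BAT libraries gave 0.0265, 0.0267 and 0 FPKM with siCtrl and 0, 0.0608 and 0.0272 with siH19. The vWAT values were 1.34, 1.63 and 1.07 FPKM at d0 and 1.91, 1.86 and 2.07 at d3 with siCtrl, and 1.47, 1.3 and 1.19 against 1.62, 2.27 and 1.62 with siH19. No BAT library exceeded 0.0608 FPKM and no vWAT library was below 1.07. The log2 differences were 1.22 ± 0.11, adjusted p = 0.000213 at d0 and 1.53 ± 0.08, adjusted p = 8.54e-06 at d3 in siCtrl cells. No fold is given against a group listed at 0, and the gene passed the filter through vWAT alone.

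The *Hoxc* genes at either end of this block behaved differently. *Hoxc4* and *Hoxc5*, which act in the neck and upper thorax, were at 5.76 to 6.96 and 4.73 to 5.22 FPKM in BAT and 4.70 to 5.83 and 2.94 to 3.89 in vWAT siCtrl cells at d0. *Hoxc5* was lower in vWAT at d0 with siCtrl (-0.43 ± 0.10, adjusted p = 0.0131) and at d3 with siH19 (-0.39 ± 0.10, adjusted p = 0.018). The d0 call was lost without vWAT siCtrl d0 replicate 1 (-0.35, under 1.3-fold on the log2(FPKM + 1) scale). The d3 call was lost without BAT siH19 d3 replicate 3, vWAT siH19 d3 replicate 1 or vWAT siH19 d3 replicate 2 (adjusted p 0.0532 to 0.0599). *Hoxc4* was not called (at d0, 95% interval -0.47 to 0.02). *Hoxc11* and *Hoxc12* reached at most 0.147 and 0.0904 FPKM.

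*Hoxc13*, the last gene of the cluster and known for its role in hair and nail keratinisation, ran against the order of its neighbours at d0. It measured 6.34, 6.87 and 5.38 FPKM in BAT and 2.00, 1.75 and 2.06 in vWAT with siCtrl (-1.29 ± 0.10, adjusted p = 0.000121), and 8.19, 6.81 and 6.63 against 3.53, 3.10 and 3.58 with siH19 (-0.90 ± 0.10, adjusted p = 0.000632). BAT was above vWAT in all libraries at d0. At d3 with siCtrl all 6 libraries were below 1 FPKM and the gene was not tested. At d3 with siH19 the values were 1.60, 1.63 and 1.81 in BAT and 0.460, 0.596 and 0.695 in vWAT (-0.76 ± 0.10, adjusted p = 0.000683). There it passed the filter through BAT alone and had to differ to be tested.

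The *Hoxa* cluster was split between its ends. *Hoxa6* and *Hoxa7*, thoracic genes, were higher in vWAT. *Hoxa7* measured 1.44, 1.38 and 1.53 FPKM in BAT and 5.39, 5.16 and 5.33 in vWAT siCtrl cells at d0, a 3.65-fold difference (1.36 ± 0.07, adjusted p = 2.2e-05). At d3 it measured 4.16, 4.57 and 5.25 against 11.8, 12.1 and 12.8 (1.23 ± 0.09, adjusted p = 3.47e-05). With siH19 it was at 2.28, 1.16 and 1.06 against 5.15, 5.59 and 4.78 at d0 and 4.20, 3.50 and 4.0 against 12, 11.9 and 13.6 at d3. The depots did not overlap at either day. Exons of *Hoxa7* share 20.4% of their bases with the antisense transcript *Hoxaas3*, and the strand setting of the counting is not given in the sources used here.

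*Hoxa6* stood lower, at 1.3, 1.05 and 0.923 FPKM in BAT and 3.00, 2.57 and 1.79 in vWAT at d0 with siCtrl (0.71 ± 0.15, adjusted p = 0.00923) and at 0.741, 1.77 and 1.19 against 3.66, 3.76 and 4.07 at d3 (1.14 ± 0.17, adjusted p = 0.00106). With siH19 the values were 0.504, 1.33 and 1.25 against 3.60, 3.06 and 3.29 at d0 and 0.923, 1.70 and 0.969 against 3.37, 3.64 and 3.99 at d3. The depots were separate in each pairing, although some BAT libraries passed 1 FPKM and others did not.

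*Hoxa9*, a lower trunk and limb gene also active in blood progenitors, was close to 0 in BAT before differentiation and not after. At d0 it measured 0.0144, 0.0437 and 0.220 FPKM in BAT and 2.24, 2.21 and 2.81 in vWAT with siCtrl (1.65 ± 0.12, adjusted p = 7.81e-05). At d3 the values were 1.51, 1.41 and 1.91 against 3.02, 3.69 and 2.56, and the difference was smaller (0.64 ± 0.13, adjusted p = 0.0048). With siH19 they were 0.186, 0 and 0.104 against 1.66, 1.73 and 1.62 at d0 and 1.90, 1.52 and 1.86 against 2.34, 2.63 and 3.42 at d3. The depots remained separate at d3, with vWAT higher. The d3 call with siH19 (0.45 ± 0.13, adjusted p = 0.0234) was lost with no filter on low values. It was also lost without BAT siH19 d3 replicate 2 (adjusted p 0.0673) or vWAT siH19 d3 replicate 3 (adjusted p 0.0593).

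*Hoxa10*, which acts in the lumbar trunk and uterus, stayed near 0 in BAT. Its 12 BAT libraries ranged from 0 to 0.127 FPKM, with 8 at 0. In vWAT it measured 2.62, 1.69 and 1.89 at d0 and 1.46, 1.74 and 1.34 at d3 with siCtrl, and 2.24, 1.36 and 1.83 against 1.14, 0.977 and 1.35 with siH19. The log2 differences were 1.58 ± 0.13, adjusted p = 0.000134 at d0 and 1.33 ± 0.09, adjusted p = 2.95e-05 at d3 with siCtrl. The gene passed the filter through vWAT alone and had to differ to be tested. All vWAT libraries were thus well above the BAT libraries, as for *Hoxc10*. Beyond it, *Hoxa11* was listed at 0 in all 12 BAT libraries and at 0.116 to 0.314 FPKM in all 12 of vWAT, too low for the filter, and *Hoxa13* never exceeded 0.394 FPKM.

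The head end of *Hoxa* had the opposite sign. *Hoxa2*, which patterns the second pharyngeal arch, was lower in vWAT in all 4 comparisons. It measured 4.32, 4.41 and 4.55 FPKM in BAT and 2.05, 1.29 and 1.22 in vWAT at d0 with siCtrl (-1.12 ± 0.14, adjusted p = 0.000765), and 2.53, 2.58 and 2.56 against 1.00, 1.23 and 1.36 at d3 (-0.70 ± 0.09, adjusted p = 0.000595). With siH19 the values were 4.30, 3.62 and 3.45 against 1.37, 2.12 and 1.48 at d0 and 2.73, 3.00 and 2.51 against 1.06, 1.07 and 1.58 at d3. BAT was above vWAT in each pairing.

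*Hoxa4*, a neck and upper trunk gene, was also lower in vWAT each time. Its values at d0 were 5.63, 4.47 and 5.03 FPKM in BAT and 2.78, 2.16 and 2.54 in vWAT with siCtrl (-0.79 ± 0.11, adjusted p = 0.00145). At d3 the gap widened to 8.91, 7.80 and 8.28 against 3.04, 2.81 and 2.42 (-1.32 ± 0.09, adjusted p = 3.14e-05). With siH19 they were 4.10, 3.28 and 4.0 against 2.33, 2.27 and 2.47 at d0 and 6.79, 7.16 and 6.48 against 3.06, 3.12 and 3.03 at d3. BAT libraries were above vWAT libraries throughout. Of its exonic bases, 16.0% lie opposite another annotated transcript.

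*Hoxa3*, a pharyngeal arch and thymus gene, was called between depots at d0 and not at d3. It measured 10.3, 12.6 and 12.6 FPKM in BAT and 5.98, 6.09 and 4.80 in vWAT at d0 with siCtrl (-0.95 ± 0.12, adjusted p = 0.000828). At d3 the values overlapped at 4.26, 4.65 and 3.39 against 4.37, 3.24 and 4.93 (95% interval of the difference -0.36 to 0.39). With siH19 they already overlapped at d0, at 8.79, 8.92 and 6.85 against 7.69, 4.47 and 6.24 (-0.38 ± 0.18, adjusted p = 0.136), and were 3.55, 4.36 and 2.74 against 3.56, 3.51 and 3.90 at d3. Of the exonic bases of *Hoxa3*, 25.4% lie opposite other annotated transcripts, *Hoxaas2* and *Hoxaas3* among them. *Hoxa5*, which lies between these groups of the cluster and has known roles in lung and adipose tissue, was not called in any depot comparison. It ranged from 11.1 to 14.9 FPKM in BAT and from 9.33 to 14.0 in vWAT.

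Promoters of a *Hoxa* gene lower and one higher in vWAT, and of *Hoxb8*, the gene with the largest log2(FPKM + 1) rise with differentiation, show what sequence lies at these starts. They are RefSeq sequences on GRCm38.p6, 300 bases around an annotated start, 5′ to 3′, with capitals for motif letters found on either strand. The motifs were TGATTNAT (Hox with Pbx), TGACAG (Meis), AGGTCA (the half-site of nuclear receptors such as the retinoic acid receptors) and TATAAA (the TATA box). *Hoxa2* is at chr6:52164782-52165081 on the minus strand, *Hoxa9* at chr6:52227321-52227620 on the minus strand and *Hoxb8* at chr11:96281655-96281954 on the plus strand.
Hoxa2: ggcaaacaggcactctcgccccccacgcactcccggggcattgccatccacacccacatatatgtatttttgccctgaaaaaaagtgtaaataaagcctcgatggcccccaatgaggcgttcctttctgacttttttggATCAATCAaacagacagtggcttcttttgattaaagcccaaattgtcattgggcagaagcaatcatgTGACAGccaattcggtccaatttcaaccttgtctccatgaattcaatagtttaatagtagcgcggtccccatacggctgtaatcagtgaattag
Hoxa9: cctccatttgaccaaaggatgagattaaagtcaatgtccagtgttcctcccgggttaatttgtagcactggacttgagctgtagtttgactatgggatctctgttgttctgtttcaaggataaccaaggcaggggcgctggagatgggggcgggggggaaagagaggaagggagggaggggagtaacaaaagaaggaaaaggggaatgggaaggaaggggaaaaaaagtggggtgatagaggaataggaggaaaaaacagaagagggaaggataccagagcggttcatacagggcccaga
Hoxb8: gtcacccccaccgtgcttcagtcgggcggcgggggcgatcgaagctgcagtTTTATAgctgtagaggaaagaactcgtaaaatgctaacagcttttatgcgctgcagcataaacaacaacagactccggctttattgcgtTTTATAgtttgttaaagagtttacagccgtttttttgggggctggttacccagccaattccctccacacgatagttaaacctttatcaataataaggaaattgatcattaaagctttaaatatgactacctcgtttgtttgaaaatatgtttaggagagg

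The *Hoxa2* window held 1 TGATTNAT match and 1 TGACAG match, which do not overlap, and the *Hoxb8* window held 2 TATAAA matches, written TTTATA on this strand. *Hoxa9* held none of the 4 motifs. RefSeq promoters were found for 22 of the 39 Hox genes, as 24 windows. TGATTNAT occurred in the windows of *Hoxa2* and *Hoxd11* and in 3.22% of 32851 promoters of all genes. TGACAG occurred in *Hoxa2* and *Hoxa3* and in 19.18% of all. AGGTCA occurred in 7 windows, those of *Hoxa5*, *Hoxb4*, *Hoxc4*, *Hoxd3*, *Hoxd4*, *Hoxd8* and *Hoxd10*, against 16.26% of all, and TATAAA in 4 against 13.62%. The Hox windows held a median of 14.5 CpG dinucleotides, against 7 in all promoters. A match describes the letters and is not shown to be a bound site.

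Few *Hoxb* genes were called between depots at d0. Of those tested in siCtrl cells, *Hoxb5* and *Hoxb9* were lower in vWAT and none was higher. *Hoxb5*, an upper trunk gene, measured 2.99, 2.14 and 2.93 FPKM in BAT and 1.65, 1.56 and 1.87 in vWAT at d0 (-0.45 ± 0.12, adjusted p = 0.022) and 2.30, 2.35 and 3.02 against 2.01, 1.5 and 1.31 at d3 (-0.45 ± 0.13, adjusted p = 0.0229). With siH19 it measured 2.1, 2.34 and 2.54 against 1.77, 1.17 and 1.42 at d0 and 3.16, 3.06 and 3.02 against 2.1, 2.00 and 1.55 at d3. The depots did not overlap, but the differences were small. With 1 library left out, the call was lost in 4 of 6 fits at d0 and 3 of 6 at d3 with siCtrl, and in 4 of 6 at d0 and 0 of 6 at d3 with siH19 (adjusted p 0.0594 to 0.0709). With no filter all but the siH19 d3 call were lost, and with the replicate block those of siH19 d0 and siCtrl d3.

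*Hoxb9*, a thoracic gene, measured 1.95, 1.86 and 1.76 FPKM in BAT and 1.13, 0.636 and 0.962 in vWAT at d0 with siCtrl (-0.59 ± 0.12, adjusted p = 0.00709). With siH19 the d0 values were 4.22, 3.61 and 3.29 against 1.03, 0.820 and 1.29 (-1.20 ± 0.13, adjusted p = 0.0004) and the d3 values 1.93, 2.08 and 1.63 against 0.532, 0.537 and 0.833 (-0.82 ± 0.12, adjusted p = 0.00113). At d3 with siCtrl it was at 0.742, 0.839 and 0.719 in BAT and 0.650, 0.343 and 0.411 in vWAT, below the filter. BAT was the higher depot in each pairing, and the gene passed the filter through BAT alone each time it was tested.

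Further *Hoxb* genes separated at d3. *Hoxb6* and *Hoxb7*, thoracic genes, were higher in vWAT at d3 with siCtrl. *Hoxb6* was at 5.86, 7.96 and 6.56 FPKM in BAT against 10.6, 11.2 and 9.96 in vWAT (0.58 ± 0.11, adjusted p = 0.00352), and *Hoxb7* at 4.41, 4.67 and 5.42 against 6.44, 7.69 and 6.75 (0.45 ± 0.10, adjusted p = 0.00708). The depots did not overlap for either gene, and with TMM scaling *Hoxb7* was not called (0.30, under 1.3-fold on the log2(FPKM + 1) scale). With siH19 at d3, *Hoxb6* was at 6.01, 5.72 and 6.95 against 8.36, 7.91 and 8.89 (0.38 ± 0.09, adjusted p = 0.011). This call was lost with TMM scaling and without BAT siH19 d3 replicate 2, BAT siH19 d3 replicate 3 or vWAT siH19 d3 replicate 3. *Hoxb7*, at 5.35, 4.19 and 4.53 against 6.00, 6.77 and 6.24, was under 1.3-fold on the log2(FPKM + 1) scale there (0.37 ± 0.10, adjusted p = 0.0183). At d0 with siCtrl *Hoxb6* ranged from 5.36 to 6.59 in BAT and 4.48 to 5.19 in vWAT and *Hoxb7* from 4.6 to 6.00 and 4.70 to 4.92, with no call. *Hoxb4*, known for its role in blood stem cells, was lower in vWAT at d3, at 8.90, 9.17 and 9.79 in BAT against 5.94, 7.03 and 6.64 in vWAT (-0.45 ± 0.08, adjusted p = 0.00275). *Hoxb2* and *Hoxb3*, hindbrain genes, were not called in any depot comparison, and *Hoxb2* at d0 was 17.2, 18.0 and 17.8 in BAT and 14.5, 13.8 and 14.3 in vWAT (-0.30 ± 0.05, adjusted p = 0.0037, under 1.3-fold). *Hoxb3* and *Hoxb2* share 52.9% and 27.3% of their exonic bases with the antisense gene *Hoxb3os*.

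The *Hoxd* cluster was represented by few genes. *Hoxd8*, a trunk gene, was at 13, 11.6 and 14.1 FPKM in BAT and 10.6, 9.16 and 10.3 in vWAT at d0 with siCtrl and was not called in any depot comparison. *Hoxd9* measured 0.959, 1.46 and 0.896 in BAT and 1.73, 2.43 and 2.2 in vWAT at d3 (0.57 ± 0.14, adjusted p = 0.0109), having overlapped at d0. At d3 this gene passed the filter through vWAT alone. *Hoxd4*, a hindbrain and neck gene, was higher in vWAT at d0 with siH19, at 0.746, 0.954 and 1.32 against 2.30, 2.01 and 2.17 (0.66 ± 0.13, adjusted p = 0.00579). In that comparison it passed the filter through vWAT alone. With siCtrl it overlapped at d0, at 1.58, 1.25 and 1.57 against 1.75, 1.48 and 2.33. *Hoxd4* shares 52.3% of its exonic bases with *Hoxd3* on the same strand, so their values are uncertain. *Hoxd10* was at most 0.0292 FPKM in BAT and at 0.157 to 0.342 in all 12 vWAT libraries, below the filter.

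Position along the cluster was then set beside the depot difference. After the values were seen, the genes were put in 3 classes of paralogue groups, so these counts are a description. In siCtrl cells at d0, groups 1 to 5 had 6 lower and 0 higher of 12 tested, with a median difference of -0.40. Groups 6 to 10 had 8 higher and 1 lower (*Hoxb9*) of 14 tested, with a median of 0.67. Of these, *Hoxa6*, *Hoxa9*, *Hoxa10*, *Hoxc9* and *Hoxc10* passed the filter through vWAT alone and *Hoxb9* through BAT alone. The counts and medians of tested genes thus depend in part on the filter. Groups 11 to 13 had 1 gene tested, *Hoxc13*, which was lower. At d3 the middle class had 11 higher and 1 lower (*Hoxb8*) of 13 tested, with a median of 1.02, and groups 1 to 5 had 4 lower, with a median of -0.15. In siH19 cells at d0, groups 1 to 5 had 1 higher and 5 lower of 12, with a median of -0.34, and groups 6 to 10 had 8 higher and 1 lower of 14, with a median of 0.86. At d3 with siH19 these classes had 0 higher and 5 lower of 12 (median -0.10) and 9 higher and 2 lower of 13 (median 0.50). Over all genes tested, 21% were higher and 10.2% lower at d0 and 32.1% and 16.5% at d3 with siCtrl. With siH19 the shares were 20.6% and 9.82% at d0 and 25.2% and 15.9% at d3.

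**Figure D3:**
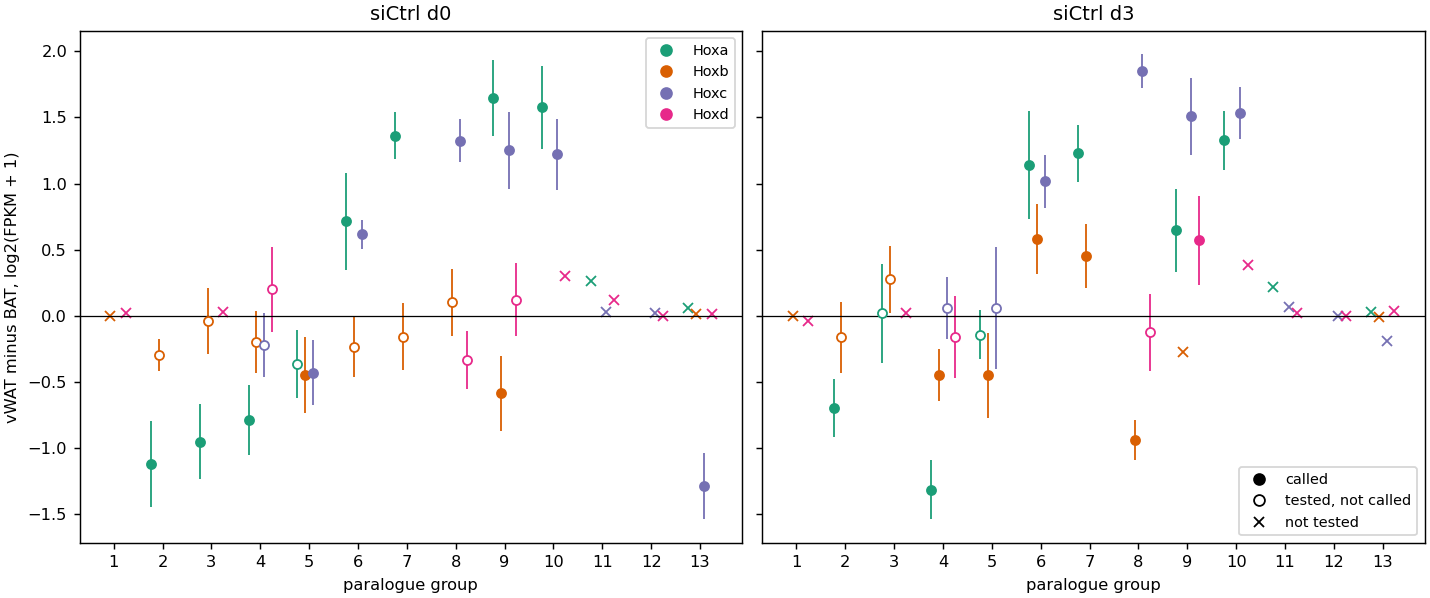
Depot difference (vWAT minus BAT, log2(FPKM + 1), with 95% intervals for tested genes) against paralogue group in siCtrl cells at d0 (left) and d3 (right), 3 libraries per depot, with colour for the cluster, filled points for called genes and crosses for untested genes. At d0 *Hoxa* rises from -1.12 for *Hoxa2* to 1.65 for *Hoxa9* and 1.58 for *Hoxa10*, then drops to 0.06 for *Hoxa13*. *Hoxb* stays between -0.59 and 0.10 at d0.

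The *Hoxa* cluster followed its own order most closely. Over its 11 genes, Pearson's r between paralogue number and difference was 0.68 and Spearman's rho 0.76 at d0, and 0.41 and 0.52 at d3. Over all 39 genes the values were 0.30 and 0.38 at d0 and 0.22 and 0.22 at d3. They were 0.02 and 0.09 in *Hoxb*, -0.15 and -0.10 in *Hoxc* and 0.02 and -0.15 in *Hoxd* at d0. With 25 genes of mean FPKM at least 1 they were 0.35 and 0.39 at d0. These are descriptions over genes that share the same libraries, and many high-numbered genes are near 0 in both depots.

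Summed over a cluster, the depots differed most for *Hoxc*. Its 9 genes summed to 42.1 FPKM in BAT and 61.5 in vWAT siCtrl cells at d0, a ratio of 1.46 ± 0.0558 (SD), and to 34.4 and 81.4 at d3, a ratio of 2.37 ± 0.191. *Hoxa* gave 0.808 ± 0.0823 at d0 and 1.15 ± 0.0477 at d3. *Hoxb* gave 0.816 ± 0.0464 and 0.912 ± 0.0589, and *Hoxd* 0.873 ± 0.125 and 1.00 ± 0.170. All 39 genes together gave 1.01 ± 0.0453 at d0 and 1.37 ± 0.0457 at d3. At d0 the sums of all Hox genes were thus nearly equal. The 6 most abundant were the same genes in both depots, in different order: *Hoxb2*, *Hoxc6*, *Hoxa5*, *Hoxd8*, *Hoxa3* and *Hoxc8*. TMM scaling gave 1.34 for *Hoxc* at d0 and 2.08 at d3.

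Differentiation moved some Hox genes in both depots. From d0 to d3 in siCtrl cells, 6 of 24 genes tested rose and 7 fell in 1° BAT, where 65.2% of all genes were called (29.9% higher, 35.3% lower), and 8 of 26 rose and 2 fell in 1° vWAT, where 50.3% were called (26.3% higher, 23.9% lower). Of these, 4 and 1 genes passed the filter on 1 day alone. The shares of tested Hox genes called, 54.2% and 38.5%, were thus below the background. In siH19 cells, 7 rose and 5 fell of 24 in BAT (60.6% of all genes called, 30.8% higher and 29.8% lower), and 6 rose and 3 fell of 26 in vWAT (52.7%, 28.2% higher and 24.5% lower). TMM scaling moved the split of all genes called in BAT siCtrl cells from 3881 higher and 4590 lower to 4298 and 4108. Adipocyte markers rose at d3, 5 of 5 in each depot, and precursor markers fell, 5 of 5 in BAT. In vWAT 3 of the 5 precursor markers fell and 1 rose, and their sum went from 542 to 601 FPKM at d0 to 661 to 741 at d3.

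*Hoxb8*, a trunk gene also known for sustaining myeloid progenitors, had the largest rise on the log2(FPKM + 1) scale in each depot in siCtrl cells. In siCtrl BAT cells it went from 1.53, 1.52 and 1.41 FPKM at d0 to 10.2, 10.4 and 10.8 at d3, a 7.02-fold rise (log2 difference 2.2 ± 0.07, adjusted p = 3.71e-07). In vWAT it went from 2.02, 1.46 and 1.55 to 5.03, 4.94 and 4.89, a 2.96-fold rise (1.16 ± 0.10, adjusted p = 7.36e-05). In siH19 cells it went from 1.59, 1.49 and 1.36 to 9.84, 10.4 and 10.6 in BAT and from 1.13, 1.23 and 0.720 to 4.45, 4.75 and 5.39 in vWAT. The days did not overlap in either depot. The rise was larger in BAT (difference of log2 differences, vWAT minus BAT, -1.04 ± 0.11, adjusted p = 1.76e-05), so that *Hoxb8*, which overlapped between depots at d0, was lower in vWAT at d3 (-0.94 ± 0.06, adjusted p = 2.44e-05).

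*Hoxb8* messenger RNA is a textbook target of the microRNA miR-196, which is encoded inside the *Hoxa*, *Hoxb* and *Hoxc* clusters, while miR-10 lies beside the *Hox4* genes. Their mature forms (RefSeq, GRCm38.p6) are shown 5′ to 3′ with the seed, bases 2 to 8, in capitals, to make the shared seeds visible. The last line is the best miR-196a match in the 3′ UTR of *Hoxb8* (GENCODE, in DNA letters), where the capital marks the position that is not a Watson-Crick pair.
miR-196a-5p: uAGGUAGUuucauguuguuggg
miR-196b-5p: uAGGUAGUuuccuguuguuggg
miR-10a-5p: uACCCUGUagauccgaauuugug
miR-10b-5p: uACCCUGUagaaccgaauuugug
Hoxb8 site: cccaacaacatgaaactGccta

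The *Hoxb8* site pairs with 21 of 22 bases of miR-196a, and the remaining position is a G:U pair. Because that pair lies in the seed, *Hoxb8* is not among the 9 Hox genes whose 3′ UTR holds the exact seed match ACTACCT, among them *Hoxa4*, *Hoxa5*, *Hoxa7*, *Hoxa9*, *Hoxb1*, *Hoxb6*, *Hoxb7* and *Hoxc8*. This match occurs in 6.09% of 20979 genes. *Hoxa7* holds 4 such matches and *Hoxc8* 2. The miR-10 match ACAGGGT occurs in 12.46% of genes, among them *Hoxa3*, *Hoxb3* and *Hoxd1*. The libraries were made from polyadenylated RNA, so mature microRNA levels were not measured. The gene row of *Mir196a-1* gave 16.9, 17.3 and 37.5 FPKM in BAT siCtrl d0 and 18.8, 40.8 and 0 in BAT siH19 d3 libraries and 0 in all others, and those of *Mir196a-2*, *Mir196b*, *Mir10a* and *Mir10b* were listed at 0.

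**Figure D4:**
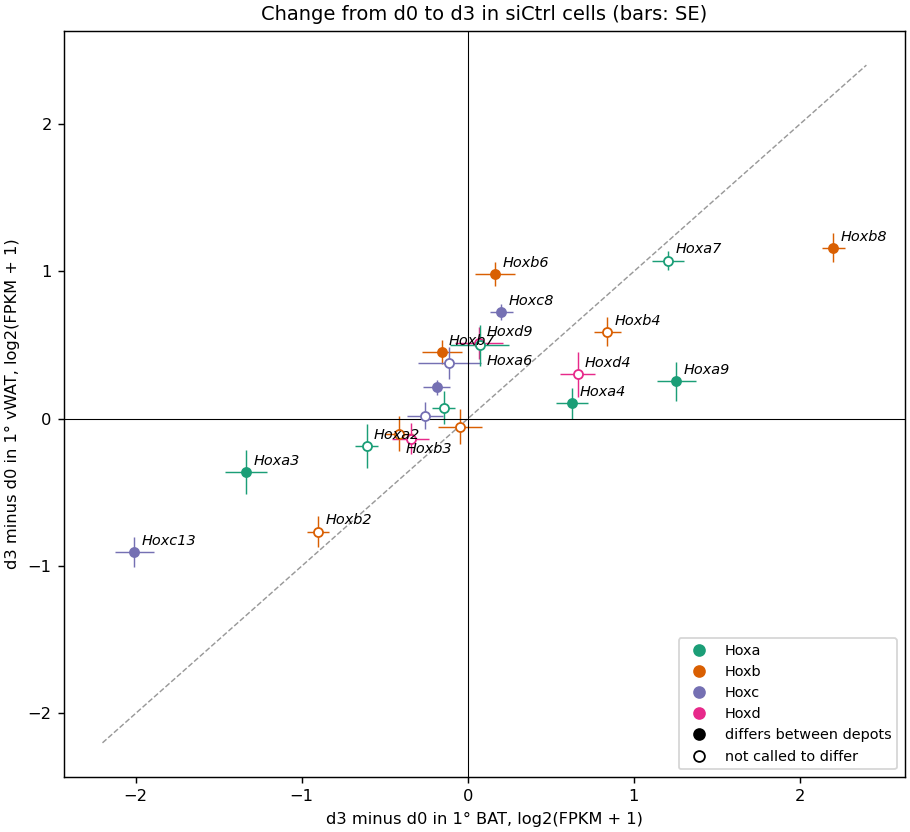
Change from d0 to d3 in siCtrl cells, log2(FPKM + 1) with SE bars, in 1° BAT (horizontal axis) and 1° vWAT (vertical axis) for Hox genes tested in both, with filled points where the change differed between depots and a dashed line of equal change. *Hoxb8* lies at 2.2 and 1.16, and *Hoxc13* at -2.01 and -0.91.

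Other genes rose in both depots. *Hoxa7* rose by 1.21 in BAT (SE 0.10, adjusted p = 3.16e-05) and 1.07 in vWAT (SE 0.06, adjusted p = 1.39e-05), from the values given above. *Hoxb4* rose from 5.22, 4.62 and 4.44 to 8.90, 9.17 and 9.79 FPKM in BAT (0.84 ± 0.08, adjusted p = 8.61e-05) and from 4.25, 3.53 and 4.26 to 5.94, 7.03 and 6.64 in vWAT (0.59 ± 0.10, adjusted p = 0.00175). With siH19 *Hoxb4* went from 5.42, 4.36 and 4.61 to 8.03, 9.50 and 9.03 in BAT and from 3.46, 3.12 and 3.47 to 5.68, 5.49 and 5.64 in vWAT. The 2 days were separate for *Hoxa7* and *Hoxb4* in each depot.

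Some rises were called in 1 depot. In BAT, *Hoxa9* rose by 1.26 (SE 0.12, adjusted p = 7.49e-05), from a mean of 0.0928 to 1.61 FPKM, having passed the filter at d3 alone. *Hoxa4* rose by 0.63 (SE 0.10, adjusted p = 0.000898) and *Hoxd4* from 1.58, 1.25 and 1.57 to 2.94, 3.22 and 2.56 FPKM (0.66 ± 0.10, adjusted p = 0.00104). For *Hoxa9* and *Hoxa4* the change differed between depots (-1.0 ± 0.18, adjusted p = 0.000837, and -0.52 ± 0.14, adjusted p = 0.00991), whereas *Hoxd4* was not called to differ (-0.36 ± 0.19, adjusted p = 0.141). In vWAT, *Hoxb6* rose from 4.92, 4.48 and 5.19 to 10.6, 11.2 and 9.96 FPKM (0.98 ± 0.08, adjusted p = 5.72e-05) and *Hoxb7* from 4.92, 4.79 and 4.70 to 6.44, 7.69 and 6.75 (0.45 ± 0.08, adjusted p = 0.00271). *Hoxc8* rose there by 0.73 (SE 0.05, adjusted p = 3.82e-05). These 3 differed between depots in their change, at 0.82 ± 0.15, adjusted p = 0.000783 for *Hoxb6*, 0.61 ± 0.15, adjusted p = 0.00478 for *Hoxb7* and 0.52 ± 0.08, adjusted p = 0.0002 for *Hoxc8*. *Hoxa6* and *Hoxd9* were called in vWAT (0.50 ± 0.14, adjusted p = 0.0185, and 0.52 ± 0.11, adjusted p = 0.005) without a called difference between depots.

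Falling genes included *Hoxc13* and genes of the head end. *Hoxc13* fell in BAT from 6.34, 6.87 and 5.38 to 0.661, 0.727 and 0.974 FPKM (-2.01 ± 0.12, adjusted p = 5.94e-06) and in vWAT from 2.00, 1.75 and 2.06 to 0.664, 0.419 and 0.621 (-0.91 ± 0.10, adjusted p = 0.000251). *Hoxb2* fell from 17.2, 18.0 and 17.8 to 9.45, 8.34 and 9.25 in BAT (-0.90 ± 0.07, adjusted p = 2.02e-05) and from 14.5, 13.8 and 14.3 to 6.80, 7.98 and 9.17 in vWAT (-0.77 ± 0.10, adjusted p = 0.000649). The 2 days were separate for both genes in both depots. Among the genes called lower in BAT and not in vWAT were *Hoxa2*, *Hoxa3*, *Hoxb3* and *Hoxb9*, at -0.61, -1.33, -0.42 and -0.69 on the log2 scale. *Hoxb3* was at 2.57, 2.66 and 2.90 FPKM in BAT at d0 and 1.63, 1.84 and 1.87 at d3. The fall was larger in BAT for *Hoxa3* (0.97 ± 0.21, adjusted p = 0.00239) and *Hoxc13* (1.10 ± 0.15, adjusted p = 0.000117). For *Hoxa2*, *Hoxb3* and *Hoxb9* the depots were not called to differ (0.42 ± 0.16, adjusted p = 0.0505, 0.32 ± 0.14, adjusted p = 0.0918, and 0.32 ± 0.16, adjusted p = 0.12).

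In the test of depot by day over all 12 siCtrl libraries, 10 of 27 Hox genes were called, 7 with a change more positive in vWAT and 3 more positive in BAT, and 53% of all 14111 genes were called, 28.1% and 24.9% in these directions. Among the 7 were *Hoxa3*, *Hoxb6*, *Hoxb7*, *Hoxc6*, *Hoxc8* and *Hoxc13*, and the 3 were *Hoxa4*, *Hoxa9* and *Hoxb8*. *Hoxc6* was called here (0.40 ± 0.09, adjusted p = 0.00421) although neither depot's own change was. The day of collection, the media and the change in cell mix cannot be told apart in this comparison.

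Knockdown of *H19* left most Hox genes uncalled. In 1° BAT, 1 of 23 tested genes was higher with siH19 at d0 (1.94% of all genes called, 0.617% higher and 1.32% lower) and 2 of 24 at d3 (8.57% of all genes, 6.39% higher and 2.18% lower). In 1° vWAT, 1 of 27 was higher at d0 (1.53% of all genes called, 0.329% higher and 1.2% lower). None of 25 was called at d3 by limma, with 4 at an unadjusted p under 0.05, and 0.0305% of all genes were called, 0.00764% higher and 0.0229% lower. No Hox gene was called lower in any of the 4. Both genes called in BAT at d3 passed the filter through the siH19 libraries alone and had to differ to be tested. Adipocyte markers were lower with siH19 at d0, 5 of 5 in each depot, and summed to 1116 to 1547 FPKM against 2472 to 2666 in BAT and to 1758 to 2008 against 3185 to 3228 in vWAT. At d3 none of the 5 was called in either depot. Of 4 precursor markers tested in BAT at d3, 3 were higher with siH19, and the list summed to 495 to 527 against 277 to 316 FPKM. The part of these changes in the Hox values was not tested. TMM scaling moved the split of all genes called from 78 higher and 167 lower to 97 and 134 in BAT at d0, from 799 and 272 to 616 and 425 in BAT at d3, and from 43 and 157 to 62 and 130 in vWAT at d0.

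*Hoxb9* was the gene called in 1° BAT at both days. At d0 it measured 1.95, 1.86 and 1.76 FPKM with siCtrl and 4.22, 3.61 and 3.29 with siH19, a 2.00-fold difference (log2 difference, siH19 minus siCtrl, 0.72 ± 0.10, adjusted p = 0.0263). At d3 it measured 0.742, 0.839 and 0.719 against 1.93, 2.08 and 1.63, a 2.45-fold difference (0.70 ± 0.11, adjusted p = 0.00796), and it passed the filter through the siH19 libraries alone. The 2 siRNA groups did not overlap on either day. In 1° vWAT the values overlapped at d0, at 1.13, 0.636 and 0.962 against 1.03, 0.820 and 1.29 (95% interval -0.24 to 0.45), and were below the filter at d3. The difference between depots in this response was not called at d0 (-0.62 ± 0.18, adjusted p = 0.146) or at d3 (-0.55 ± 0.16, adjusted p = 0.0578). The d0 call was lost without any single one of its 6 libraries (adjusted p 0.0709 to 0.104), with a replicate block (0.0934) and with no filter (0.0798).

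*Hoxc13* was called in BAT at d3 and in vWAT at d0. In BAT at d3 it measured 0.661, 0.727 and 0.974 FPKM with siCtrl and 1.60, 1.63 and 1.81 with siH19, a 2.14-fold difference (0.59 ± 0.11, adjusted p = 0.016), again passing the filter through siH19 alone. In vWAT at d0 it measured 2.00, 1.75 and 2.06 against 3.53, 3.10 and 3.58, a 1.76-fold difference (0.58 ± 0.09, adjusted p = 0.0348). Both pairs were separate. In BAT at d0 the values overlapped, at 6.34, 6.87 and 5.38 against 8.19, 6.81 and 6.63 (0.19 ± 0.11, adjusted p = 0.415). At d3 the response differed between depots (-0.57 ± 0.15, adjusted p = 0.0361), with vWAT at 0.664, 0.419 and 0.621 against 0.460, 0.596 and 0.695. The vWAT call at d0 was lost without any single one of its 6 libraries (adjusted p 0.0833 to 0.135), and the BAT call at d3 without BAT siCtrl d3 replicate 2 (adjusted p 0.0657).

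**Figure D5:**
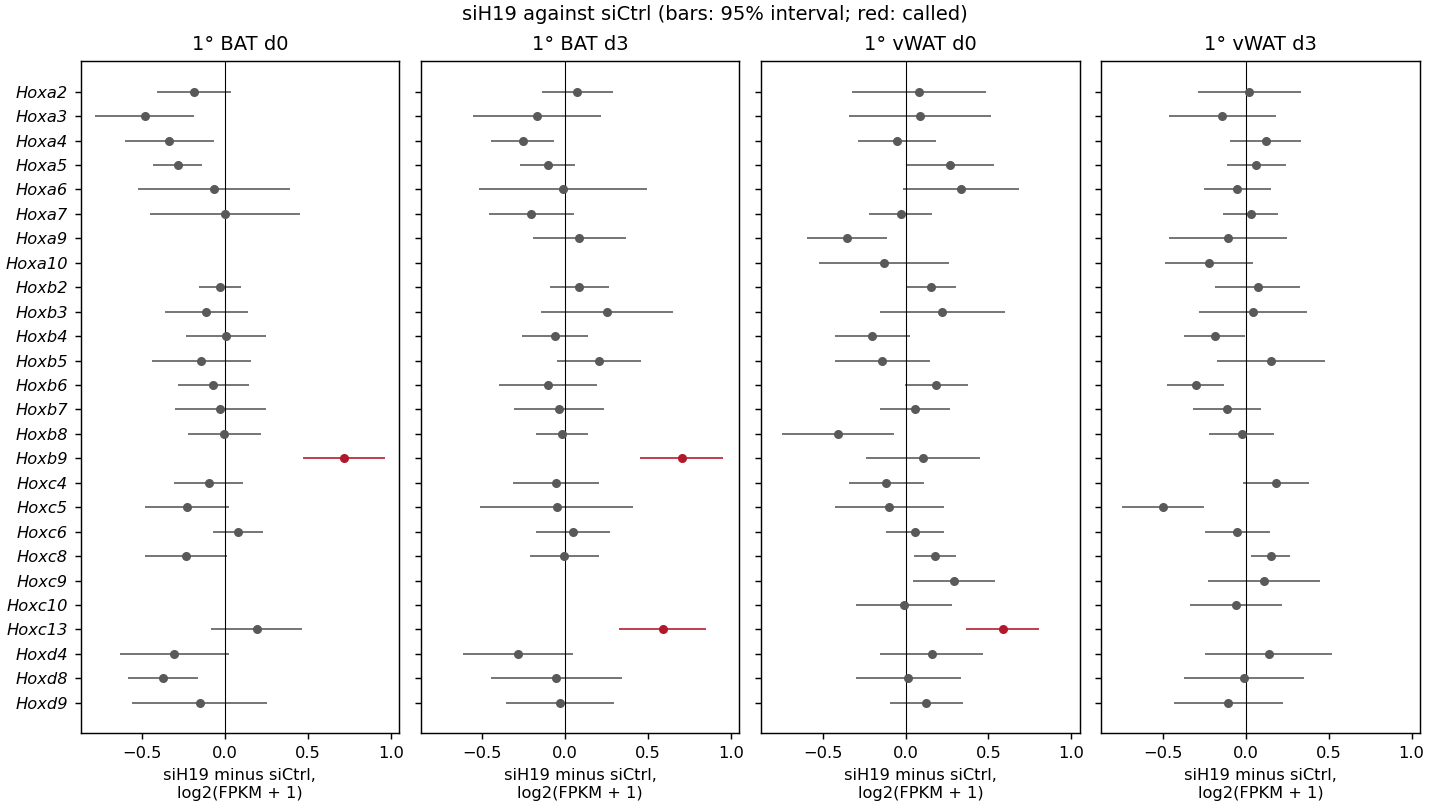
Difference siH19 minus siCtrl, log2(FPKM + 1) with 95% intervals, for Hox genes tested in each depot and day (panels), 3 libraries per group, with called genes in red. *Hoxb9* lies at 0.72 and 0.70 in 1° BAT and *Hoxc13* at 0.59 in 1° BAT at d3 and 0.58 in 1° vWAT at d0.

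Several genes with large depot differences at d0 were not called between siRNAs. *Hoxc8* differed between siH19 and siCtrl by -0.23 (95% interval -0.48 to 0.01) in BAT and 0.18 (0.05 to 0.31) in vWAT at d0. For *Hoxa7* the 95% intervals were -0.45 to 0.45 in BAT and -0.22 to 0.16 in vWAT. *Hoxa9* and *Hoxa10* were not tested in BAT at d0, and in vWAT differed by -0.35 (-0.60 to -0.11, adjusted p = 0.15) and -0.13 (-0.52 to 0.26). Across depot by siRNA at d3, 1 of 27 Hox genes was called, against 10.5% of all genes (3.52% more positive in vWAT, 7.02% in BAT), and at d0 none was called by limma, with 11 at an unadjusted p under 0.05 and 1.02% of all genes called. TMM scaling moved the split of all genes called at d3 from 485 higher and 966 lower to 760 and 641.

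Non-coding transcripts of the clusters were examined next, 18 of 19 listed names being in the table. Of 8 tested between depots at d0 in siCtrl cells, 1 was higher and 4 were lower in vWAT, with 21% of all genes higher and 10.2% lower. *Hoxaas3*, antisense in *Hoxa*, was higher at 2.16, 2.12 and 1.74 FPKM against 1.07, 0.777 and 1.17 in BAT (0.59 ± 0.11, adjusted p = 0.00618). *Hoxaas2*, which lies opposite exonic bases of *Hoxa3*, was lower at 0.874, 0.529 and 0.732 against 3.58, 4.12 and 4.14 (-1.53 ± 0.11, adjusted p = 6.83e-05). So was *Hoxb5os* at 1.02, 0.763 and 0.739 against 2.88, 2.69 and 2.66 (-1.03 ± 0.09, adjusted p = 0.00022). *Gm53* and *Mir196a-1* were the other two, and the BAT values of *Gm53* ranged from 1.55 to 9.06 FPKM. The depots did not overlap for *Hoxaas2* and *Hoxb5os*. All transcripts called here passed the filter through 1 depot alone, *Hoxaas3* through vWAT and the others through BAT. Passing in this way favours a difference, so these counts are no sign of a particular difference.

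*Hotairm1*, transcribed at the head end of *Hoxa*, stood at 24.9, 24.8 and 25.4 FPKM in BAT and 30.8, 21.4 and 33.5 in vWAT at d0 with siCtrl. In BAT it was at 48.0, 35.9 and 47.8 at d3 (0.77 ± 0.11, adjusted p = 0.000742), and in vWAT at 28.7, 22.7 and 26.9 (-0.11 ± 0.17, adjusted p = 0.6). *Hoxaas2* went from 3.95 to 0.911 and *Hoxaas3* from 1.01 to 3.16 FPKM in BAT. *Hoxd3os1* went from 1.96 to 6.78 in BAT and from 2.86 to 6.23 in vWAT. *Hoxb3os* stayed between 5.36 and 6.96 in the 4 siCtrl group means. *Hotair* and *Hottip*, long non-coding RNAs known as regulators of Hox chromatin, were at most 0.0273 FPKM and at 0. *Haglr*, *Halr1* and *Hoxa11os* did not exceed a siCtrl group mean of 0.515 FPKM, and *Mir615* was listed at 0.

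Transcripts of proteins that work with Hox factors were also compared between depots. Of 8 tested Pbx, Meis and Pknox cofactors, 3 were higher and 0 lower in vWAT at d0 in siCtrl cells, and 6 were higher at d3. Of all genes tested, 21% were higher at d0 and 32.1% at d3. *Meis1* measured 4.83, 4.71 and 4.44 FPKM in BAT and 17.3, 18.3 and 19.4 in vWAT at d0 (1.77 ± 0.07, adjusted p = 5.98e-06). *Meis2* measured 16.1, 17.3 and 10.2 against 19.8, 28.2 and 24 (0.70 ± 0.21, adjusted p = 0.0318). Neither gene overlapped between depots. With differentiation, 6 of 8 fell in BAT, where 35.3% of all genes were lower, and 4 fell and 1 rose in vWAT, where 23.9% were lower and 26.3% higher.

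Chromatin and signalling regulators, and the genes outside the clusters that follow them, are read against 21% of all genes higher and 10.2% lower in vWAT at d0 in siCtrl cells. Of 26 tested Polycomb genes, 6 were higher and 0 lower in vWAT at d0, among them *Jarid2* (16.9 against 6.44 FPKM), *Cbx6* (23.2 against 12.7), *Pcgf5* and *Phf1*, a share near that of all genes. *Ezh2* and *Eed*, core subunits of the complex, averaged 17.1 and 52.4 FPKM in BAT and 18.9 and 51.8 in vWAT. Of 15 trithorax-related genes, 3 were higher (*Kdm6b*, *Kmt2b*, *Dpy30*) and 0 lower, again near it. Of 12 tested upstream regulators, 4 were higher and 1 lower at d0. The retinaldehyde dehydrogenases *Aldh1a1* and *Aldh1a2*, which make retinoic acid, were at 41.5 and 47.6 FPKM in vWAT against 9.58 and 6.84 in BAT. *Cyp26b1*, which degrades retinoic acid, was at 1.04 against 6.98. Mesothelial markers, given above, were higher in the same depot, and their part was not tested.

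Genes beside the clusters gave a reference for their surroundings. Of 8 tested flanking genes, 2 were higher in vWAT at d0, *Snx10* beyond the *Hoxa* cluster (18.9 against 8.75 FPKM) and *Calcoco1* beyond *Hoxc* (20.7 against 11.8). The flanking homeobox genes *Evx1* and *Evx2* were listed at 0 in siCtrl cells at d0. Among 29 tested positional transcription factors outside the clusters, 9 were higher and 15 lower in vWAT at d0. The widest gaps were *Wt1* (34.1 against 0.149 FPKM), *Tcf21* (36.8 against 0.611), *Tbx15* (0.0884 against 20.4) and *Lhx8* (0.0316 against 11.5). *Tbx15* is a shoulder girdle gene and *Tcf21* a visceral mesenchyme gene.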

How the data were processed

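The deposited table holds 1 FPKM value per gene and library. The authors made these FPKM values with the QuickNGS pipeline (version 1.2.7, Ensembl release 87), which aligned reads with TopHat2 (2.0.10) to GRCm38.p5 and estimated expression with Cufflinks (2.2.1 per the labels' processing notes). The table itself names no unit, so FPKM is taken from the study's description of these data. No counts were used here, and absolute depth is unknown. The labels give a directional kit with paired reads of polyadenylated RNA, whereas the study's methods give single-end reads, a kit not called directional and another Cufflinks version. The strand setting of the counting is not given in the sources used here.

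Genes with 1 FPKM or more in at least 3 of the libraries compared were tested on log2(FPKM + 1), which understates changes of low genes, with limma (3.58.1, trended variance, R 4.3.3). P-values were adjusted by Benjamini-Hochberg over all genes tested. A gene was called at an adjusted p under 0.05 and at least 1.3-fold on the log2(FPKM + 1) scale, and an interaction at an adjusted p under 0.05. Each comparison used its own groups, 3 libraries each. The fit was tested on simulated data. Library values were given for Hox genes called the same way in all 4 depot comparisons or in a day or siH19 comparison, and for each gene list at most 4 genes, those with the largest depot difference called in siCtrl cells at d0. Values of further Hox genes were named after they were seen. The Hox genes and the gene lists were chosen with earlier results of these data known. Values of some genes counted in the totals are not reported here.

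Alternatives were a pseudocount of 0.1, a filter of 0.1 FPKM or none, TMM scaling, no minimum fold (or 1.3-fold for interactions), 1 fit over all 24 libraries, a replicate block, and leaving out each library. Replicates correlated at 0.991 to 0.993. Promoter and microRNA sequences are from RefSeq (GRCm38.p6). Exon overlaps and 3′ UTRs, the longest annotated per gene, are from GENCODE vM21, in which all 39 Hox genes had the coordinates of the table.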

Additional observations from a re-analysis of the deposited data

Results flagged for a closer look

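The change from d0 to d3 in siCtrl cells differed between depots, by a test of the difference itself in limma, for 10 Hox genes, 9 of which are given here. Values are the change in 1° vWAT minus the change in 1° BAT on the log2(FPKM + 1) scale, with the SE and adjusted p. Among genes whose change was more positive in vWAT were *Hoxc13* at 1.10 (SE 0.15, adjusted p = 0.000117) and *Hoxa3* at 0.97 (SE 0.21, adjusted p = 0.00239). For both the fall was larger in BAT. *Hoxb6* at 0.82 (SE 0.15, adjusted p = 0.000783), *Hoxb7* at 0.61 (SE 0.15, adjusted p = 0.00478) and *Hoxc8* at 0.52 (SE 0.08, adjusted p = 0.0002) rose in vWAT. *Hoxc6* followed at 0.40 (SE 0.09, adjusted p = 0.00421).

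Genes whose change was more positive in BAT were *Hoxb8* at -1.04 (SE 0.11, adjusted p = 1.76e-05), *Hoxa9* at -1.0 (SE 0.18, adjusted p = 0.000837) and *Hoxa4* at -0.52 (SE 0.14, adjusted p = 0.00991). All 3 rose in BAT. Of all genes tested, 53% were called in this comparison.

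The response of *Hoxc13* to siH19 at d3 differed between depots, at -0.57 for vWAT minus BAT (SE 0.15, adjusted p = 0.0361). Its 3 BAT libraries with siH19 were above the 3 with siCtrl, while the vWAT libraries overlapped. With most single libraries left out this difference was no longer called.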

How the results depend on the processing

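Every called direction of a Hox gene was kept in all alternatives run, and the total counts of called Hox genes in the 4 depot, 4 day and the depot by day comparisons stayed within 1.5 times of those given. By direction, and with the filter redone, the 8 higher in vWAT at d0 with siCtrl became 4 without any 1 vWAT library. As 3 libraries at 1 FPKM were still needed, genes under 1 FPKM in all BAT libraries then failed by rule. This drop does not measure the spread between libraries. The 8 lower at d3 with siH19 became 5 without BAT siH19 d3 replicate 3. Of genes that fell in vWAT, 2 became 1 without vWAT siCtrl d0 replicate 1 or 2, and 3 became 1 without vWAT siH19 d0 replicate 3. Over single genes, comparisons and alternatives, 7030 values kept their side of the threshold, 120 lost a call and 81 gained one. Leaving out 1 library gave 15 to 17 (siCtrl d0), 14 to 16 (siH19 d0), 15 to 16 (siCtrl d3) and 15 to 18 (siH19 d3) Hox genes called between depots, and 9 to 10 called the same way in all 4. Keeping the genes tested as in the full comparison in these fits was chosen after the values were seen. Redoing the filter, also added after seeing the data, gave 11 to 17, 11 to 16, 12 to 16, 13 to 16 and 6 to 10. The lowest value, 6, came without vWAT siCtrl d0 replicate 1 or replicate 2, where *Hoxa9*, *Hoxc9* and *Hoxc10* failed the filter and *Hoxb5* lost its call on the adjusted p (0.0638 and 0.071).

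The siH19 calls were less stable. In BAT at d0 the 1 call became 0 with no filter, with the replicate block and without any 1 library (0 to 0). In vWAT at d0 the 1 call became 0 with a filter of 0.1 FPKM, with no filter, with the replicate block and without any 1 library (0 to 0), and 2 with all 24 libraries in 1 fit. In BAT at d3 the 2 calls became 1 to 2 without 1 library, and 0 to 2 with the filter redone. Both genes fail the redone filter by rule when an siH19 library is left out. The 1 depot by siRNA call at d3 became 0 with a pseudocount of 0.1 or no filter, 2 with TMM scaling or all 24 libraries, and 0 to 2 without 1 library. At d0 the 0 calls became 2 with all 24 libraries and 0 to 1 without 1 library. The causes were not tested.

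Replicate numbers did not pair the libraries: same-numbered libraries of compared groups correlated at -0.143 to 0.0880 in 36 pairs, 0 of them above 0.1. In 12 of these 36 pairs the library correlated best with its own number. The replicate block gave 9 Hox genes called the same way in all 4 depot comparisons. TMM scaling gave cluster ratios of 1.01 for *Hoxa* at d3, 0.745 and 0.801 for *Hoxb* at d0 and d3, 1.34 and 2.08 for *Hoxc*, and 0.923 and 1.2 for all Hox genes. Without 1 library the *Hoxc* ratio was 1.43 to 1.48 at d0 and 2.28 to 2.47 at d3. Values near 0 rest on few reads, and no depth is known to give a floor.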
